A study of Mus musculus with 16 samples.

Results

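The genes described here are 4 muscle actin genes and 5 genes of the smooth muscle contractile apparatus, read in cultured mouse pluripotent stem cells. They are Actc1, Acta1, Acta2 and Actg2, together with Tagln, Cnn1, Myl9, Tpm1 and Tpm2, and they make up 9 of the 34042 genes in the count table. The genes were chosen by symbol, with an earlier account of the same libraries known in which Actc1 stood out as higher in FS than in ES cells. Levels against ES cells are therefore given as a description, with no test, and support nothing. The low-count filter was passed by 8 of the 9 genes and by 18555 genes in all, and Actg2 did not pass it.

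Total RNA from 16 cultures was sequenced in bulk. Formative stem (FS) cells, labelled as cultured in A3XR medium, gave 6 libraries, 3 from line 5ar1 (passages 10, 12 and 14) and 3 from line 5ar3 (passages 4, 5 and 12). Epiblast stem cells (EpiSC) came from line AFX6 in AFX medium (passages 5, 8 and 12) and from line AF32 in AF medium (passages 13, 14 and 15). The 4 libraries of embryonic stem (ES) cells were passages 12, 13, 15 and 20 of line E14IV-C, kept in 2iL. The labels name no genotype change, no added agent beyond the media and no embryo age. Every group but FS is 1 line, so line and medium cannot be told apart, and the p-values below measure the spread between passages of these lines. In comparisons of groups, they also take in the spread between the FS lines 5ar1 and 5ar3.

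Actins form the filaments of the cytoskeleton and of the muscle contractile apparatus. Most cell types rely on the cytoplasmic actins Actb and Actg1, whereas Actc1, Acta1, Acta2 and Actg2 encode the cardiac, skeletal, vascular smooth muscle and enteric smooth muscle isoforms. Transcription of muscle actins and of many smooth muscle genes is driven by serum response factor (SRF), which binds the CArG box and works with cofactors of the myocardin family. Of these cofactors, Mrtfa and Mrtfb have an activity that follows actin polymerisation and cell tension. Several of these genes are also expressed outside muscle, in stressed or spreading cells and in early embryos.

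Promoter stretches are shown for Actc1, Acta1, Acta2 and Myl9, the members with a RefSeq window in which an SRF motif, or a version of it with 1 other base, was found. RefSeq windows on GRCm38.p6 were found for 7 of the 9 genes, and 250 bases upstream of the annotated start were searched on both strands. An exact CArG box (a pair of C, a run of A or T, a pair of G) was found in 3 of these windows, those of Actc1, Acta1 and Myl9, and in 1.47% of 32851 windows of the same length across the genome. Windows of Actc1, Acta1, Acta2 and Myl9 also held versions with 1 other base in the run, which occur in 7.24% of all windows. The stretches run 5′ to 3′ on the gene's own strand, and the capitals mark CArG boxes and the versions with 1 other base.
Actc1: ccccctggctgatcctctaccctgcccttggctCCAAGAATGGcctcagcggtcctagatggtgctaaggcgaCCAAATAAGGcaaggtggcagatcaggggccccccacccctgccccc
Acta1: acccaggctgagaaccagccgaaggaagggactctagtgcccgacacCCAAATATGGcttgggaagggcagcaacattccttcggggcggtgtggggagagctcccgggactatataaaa
Acta2: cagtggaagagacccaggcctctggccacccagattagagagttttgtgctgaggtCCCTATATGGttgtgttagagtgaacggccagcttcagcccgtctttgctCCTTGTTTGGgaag
Myl9: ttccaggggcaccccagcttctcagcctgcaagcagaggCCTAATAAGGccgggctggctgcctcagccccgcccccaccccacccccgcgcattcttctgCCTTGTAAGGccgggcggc

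The Actc1 stretch lies at chr2:114052876-114052995 on the minus strand, and its exact box spans positions -47 to -38 counted from the annotated start. Acta1 is at chr8:123894776-123894895, also minus, with its exact box at -73 to -64. The Acta2 stretch is at chr19:34255394-34255513 on the minus strand and holds 2 versions with 1 other base, starting at -84 and -34. For Myl9, at chr2:156775264-156775383 on the plus strand, the exact box spans -161 to -152. The MCAT motif (CATTCC) was found in the windows of Acta1, Acta2 and Tpm1 and in 12.6% of all windows, and the TATA motif (TATAAA) in that of Acta1 and in 12.4% of all. No matches in these windows overlapped, and a match describes letters in a window, not binding. In GENCODE on GRCm38 the other genes lie at chr6:83512905-83536265 (Actg2, minus), chr9:45929619-45936058 (Tagln, minus), chr9:22099216-22109630 (Cnn1, plus), chr9:67022590-67049406 (Tpm1, minus) and chr4:43514711-43523765 (Tpm2, minus).

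In ES cells the 4 muscle actins were almost absent. Levels are CPM, read counts scaled to a common library total after trimmed-mean (TMM) scaling, and libraries held 22069338 to 33290250 counts. Actc1, cardiac actin, had 1 read in the 4 ES libraries together, against 0.0455 CPM in the passage 15 library and 0 in the others. Across FS libraries it had a lowest value of 5.68, a median of 12.9 and a highest value of 43.5 CPM. It stood at 6.64, 1.43 and 4.06 CPM in EpiSC_AFX at passages 12, 5 and 8, and at 27.9, 8.46 and 19.3 CPM in EpiSC_AF at passages 13, 14 and 15. Every FS and EpiSC library thus lay above every ES library. The pooled FS level was 1330 times that of ES, with a 95% counting interval of 239 to 52600 that rests on the single ES read.

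Acta1, the skeletal muscle isoform, ranged from 2.87 to 25.6 CPM in FS, with a median of 9.56. EpiSC_AFX gave 15.9, 2.07 and 11.6 CPM and EpiSC_AF 13.9, 4.83 and 8.13 CPM, in the same passage order. In ES cells it had 0, 0.226, 0 and 0.127 CPM at passages 12, 13, 15 and 20. The FS and EpiSC ranges of Acta1 overlapped throughout, and all were above ES. Its pooled ratio to ES was 118 in FS (59.7 to 274), 103 in EpiSC_AFX (51.9 to 239) and 92.5 in EpiSC_AF (46.7 to 215).

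Acta2, the smooth muscle isoform, had the highest mean level per kilobase of exon of the 4 in FS (13.1 CPM per kb) and EpiSC_AF (21.2 CPM per kb). It ranged from 10 to 71.5 CPM in FS with a median of 22.4, and stood at 20.1, 3.75 and 5.69 CPM in EpiSC_AFX. The EpiSC_AF libraries held 78.6, 26.3 and 34.5 CPM, all above the 3 EpiSC_AFX libraries. ES libraries held 0.0691, 0, 0.0911 and 0.127 CPM. The pooled ratio of FS to ES was 390 (179 to 1060).

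Actg2, the enteric smooth muscle isoform, stayed near the detection limit. No read was counted in the 4 ES or the 3 EpiSC_AFX libraries. FS libraries held 14 reads, of which 13 were from line 5ar3 (6, 3 and 4 in the libraries of passages 12, 4 and 5) and 1 from line 5ar1. EpiSC_AF held 25, 3 and 6 reads. With the ES level set to a floor of 3 reads over the group, the pooled EpiSC_AF level was 10.3 times that of ES. This ratio is not a lower bound, since it leaves out counting error in the EpiSC_AF reads. The pooled ratio of line 5ar3 to 5ar1 was 15.3, with a counting interval of 2.3 to 651. The intervals cover counting error only, and neither they nor the floor covers the spread between libraries.

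The actin-binding members followed the same split between ES and the other cultures. Tagln encodes transgelin (SM22α), an actin cross-linking protein long used as an early smooth muscle marker. Its FS libraries ran from 64.8 to 232 CPM with a median of 97.8, EpiSC_AFX held 91.5, 26.0 and 151 CPM, and EpiSC_AF 285, 95.2 and 195 CPM. ES libraries held 0.622, 0.135, 0.319 and 0.127 CPM, and the pooled FS ratio to ES was 449 (297 to 717). Tagln shares 108 exonic bases with Pcsk7 on the opposite strand, and the strand setting of the counting is not given in the sources used here.

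Cnn1, calponin 1, which binds actin and restrains myosin activity in smooth muscle, was between 30.7 and 66.2 CPM in FS. It held 24.2 to 68.6 CPM in EpiSC_AFX, 16.1 to 46.0 CPM in EpiSC_AF and 0.0451 to 0.207 CPM in ES. Myl9, the regulatory light chain of smooth muscle and non-muscle myosin, was between 21.1 and 58.2 CPM in FS, 9.88 and 27.7 in EpiSC_AFX, 16.6 and 42.8 in EpiSC_AF, and 0.0903 and 0.425 in ES. The pooled FS ratios to ES were 425 (231 to 887) for Cnn1 and 137 (87.8 to 228) for Myl9. Neither gene had an ES library within the range of any other group.

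The tropomyosins Tpm1 and Tpm2, which lie along the actin filament and gate myosin access, were the members that ES cells did express. Tpm1 held 63.6, 59.8, 53.2 and 64.0 CPM in ES against a median of 431 CPM in FS (326 to 922). Tpm2 held 3.32, 2.21, 1.64 and 1.78 CPM in ES against a median of 39.0 CPM in FS (27.3 to 66.6). Their pooled ratios of FS to ES, 8.98 (8.73 to 9.25) and 20.3 (17.5 to 23.7), were the smallest among the 8 filtered genes. These intervals cover counting error only, not the spread between libraries. With each library left out in turn, the fitted log2 difference ran from 2.93 to 3.26 for Tpm1 and from 4.15 to 4.54 for Tpm2. Both encode short and long isoforms from a single locus, which counts per gene do not separate.

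**Figure D1:**
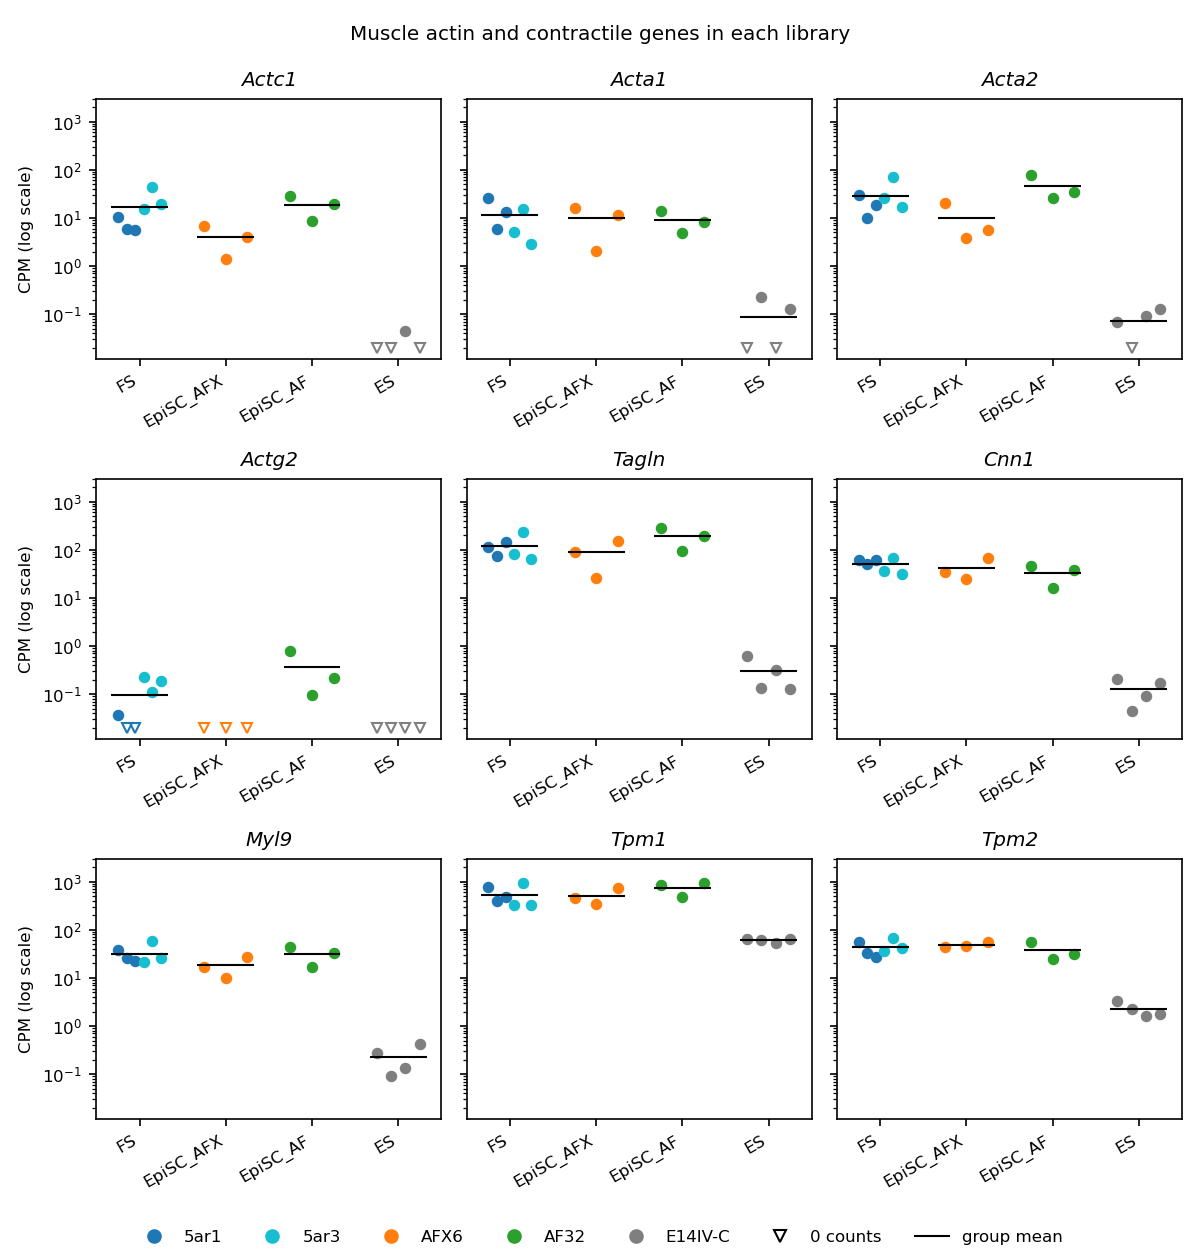
CPM on a log axis for each of the 9 genes, 1 point per library, coloured by line, with the group mean as a black line and libraries with 0 counts as open triangles at the foot of the axis. In every panel but that of Actg2 the ES points lie below all others, and Actg2 reaches at most 0.803 CPM.

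Counted over the members, 8 of 9 genes were higher in every FS and EpiSC_AFX library than in any ES library, and all 9 in every EpiSC_AF library. Of all tested genes, 24.4% were separated from ES in this direction in FS, 30.2% in EpiSC_AFX and 32.5% in EpiSC_AF. Nothing is read from the members' count, since FS and EpiSC libraries alone could carry a gene through the filter and the genes were chosen with this contrast known. Among all tested genes, 32.9% were called higher and 29.9% lower in FS than in ES, 28.5% and 26.2% in EpiSC_AFX than in ES, and 29.7% and 27% in EpiSC_AF than in ES (edgeR quasi-likelihood test, Benjamini-Hochberg adjusted p under 0.05). The median fitted log2 difference over the 8 filtered members was 7.8 for FS, 6.8 for EpiSC_AFX and 7.53 for EpiSC_AF, beside 0.04, 0.01 and 0.01 over all tested genes. The 3 comparisons share the same ES libraries. Scaling by total counts alone moved the median over all genes to 0.40, 0.25 and 0.29 against ES, and the share of calls that were higher from 52.4 to 70.5% in FS, 52 to 64.7% in EpiSC_AFX and 52.4 to 66.3% in EpiSC_AF. In bulk RNA, fewer cells expressing a gene and less RNA per cell cannot be told apart.

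Levels of different genes were compared per kilobase of exon. Tpm1 came first in FS, at 82.4 ± 38.6 CPM per kb (SD, n = 6), followed by Tagln at 59.8 ± 32.0, Myl9 at 27.3 ± 12.2, Cnn1 at 18.6 ± 5.42, Tpm2 at 15 ± 5.12, Acta2 at 13.1 ± 10.1, Actc1 at 10.3 ± 8.74, Acta1 at 7.34 ± 5.54 and Actg2 at 0.0604 ± 0.063. Each neighbouring pair in that order had overlapping library ranges except Acta1 and Actg2. Tpm1 and Tagln also came first and second in both EpiSC groups, and Actg2 last. In ES cells, Tpm1 (9.28 ± 0.772 CPM per kb, n = 4) and Tpm2 (0.769 ± 0.261) stood clear of each other and of the rest, and Actc1, at 0.00704 ± 0.0141, was the lowest gene with a read.

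The muscle actins were a small part of all actin message. Per kilobase, Actc1, Acta1, Acta2 and Actg2 together made up 2.26 ± 1.28% of the summed level of the 4 genes with Actb and Actg1 in FS (0.99 to 4.68%, n = 6). The share was 1.01 ± 0.821% in EpiSC_AFX (0.337 to 1.92%, n = 3), 2.59 ± 1.09% in EpiSC_AF (1.63 to 3.77%, n = 3) and 0.00975 ± 0.00395% in ES (0.00543 to 0.0134%, n = 4). FS, EpiSC_AFX and EpiSC_AF ranges overlapped. The coding sequences of these 6 genes were 81.5 to 88.7% identical in pairs, but the 4 muscle actins shared no 50-base stretch with each other, and Acta1, which shared most with a cytoplasmic actin, had 28 such stretches in common with Actb (2% of its own).

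Which of the FS and EpiSC cultures differed was then tested. In FS against EpiSC_AFX, 0 of the 8 tested members were called, beside 2.89% of tested genes called higher and 2.1% lower (57.9% of calls higher, and 72.7% with total counts, which moved the median over all genes from 0.04 to 0.16). Actc1 was 2.04 higher on the log2 scale in FS (SE 0.64, edgeR adjusted p = 0.0771) and Acta2 1.54 higher (SE 0.62, adjusted p = 0.181), and these 2 were the members with an unadjusted p under 0.05. FS and EpiSC_AFX ranges overlapped for both. The other 6 lay between -0.14 (Tpm2) and 0.80 (Myl9). With the 5ar3 libraries as the only FS libraries, Actc1 passed the threshold at 2.69 (adjusted p = 0.00563), while with 5ar1 alone no member passed. Leaving out single libraries also brought calls: Actc1 passed at 2.23 (adjusted p = 0.0391) without 5ar1 passage 14, and Acta2 at 2.61 (0.0483) without EpiSC_AFX passage 12. Over all alternatives the adjusted p ran from 0.00563 to 0.393 for Actc1 and from 0.0483 to 0.514 for Acta2.

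In FS against EpiSC_AF, 0 of 8 members were called and none had an unadjusted p under 0.05, beside 7.84% of tested genes called higher and 8.81% lower. Fold changes ran from -0.70 (Acta2, SE 0.55, edgeR adjusted p = 0.442) to 0.61 (Cnn1, SE 0.35, adjusted p = 0.262). Actc1 was at -0.15 (SE 0.56) and Tpm1 at -0.48 (SE 0.32). DESeq2 likewise called 0 members in either FS comparison with EpiSC.

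The 2 EpiSC groups were compared next. In EpiSC_AFX against EpiSC_AF, 0 of 8 members were called, beside 1.43% of tested genes called higher and 2.83% lower. Actc1 (log2 fold change -2.20, SE 0.69, edgeR adjusted p = 0.0902) and Acta2 (-2.24, SE 0.69, adjusted p = 0.0831) had an unadjusted p under 0.05, and their libraries did not overlap. These were 2 of the 8 tested members, beside 17.9% of all tested genes with every EpiSC_AFX library below every EpiSC_AF library, so the members' share was near that of all genes. Without the passage 12 library of EpiSC_AFX, Acta2 passed at -3.30 (adjusted p = 0.0162, with a range of 0.0162 to 0.303 over all alternatives). Tagln was at -1.10 (SE 0.57), and Acta1, Cnn1 and Tpm2 were on the positive side, at 0.14, 0.34 and 0.38. Actg2 entered the test only with no low-count filter, where it was called at an adjusted p of 0.049 with 0 reads against 34.

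**Figure D2:**
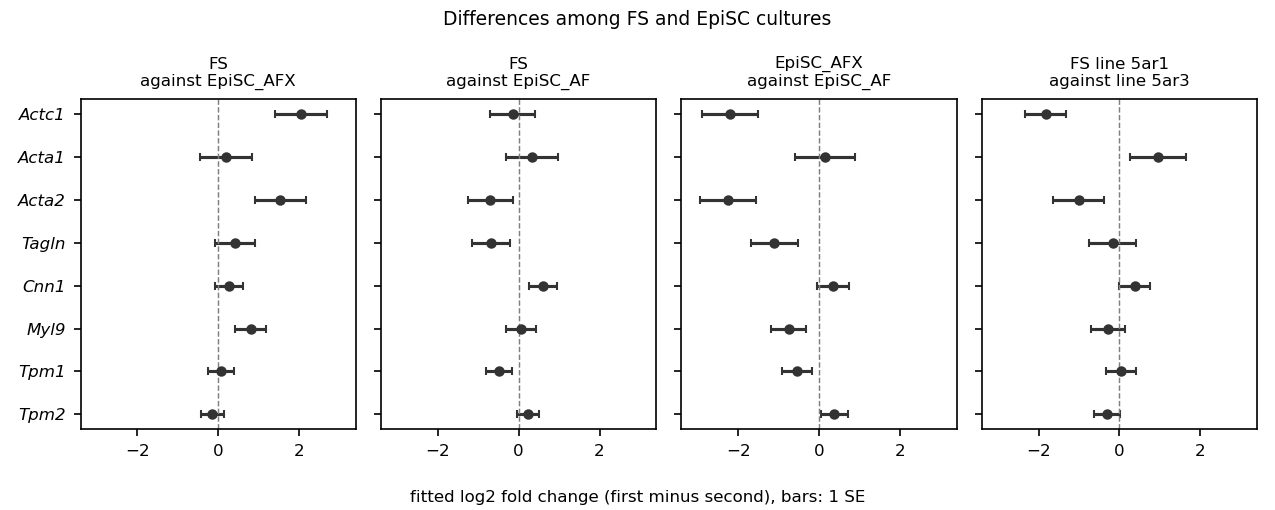
Fitted log2 fold changes of the 8 tested genes in 4 comparisons, as points with bars of 1 SE on a common axis. Actc1 and Acta2 lie farthest from 0 in FS against EpiSC_AFX and in EpiSC_AFX against EpiSC_AF, and Actc1 in the comparison of the FS lines.

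Between the FS lines, Actc1 was the 1 of the 8 tested members whose libraries did not overlap, beside 10.4% of all tested genes with every 5ar1 library below every 5ar3 library, a share near that of the members. Actg2, which did not pass the filter, did not overlap either. Actc1 held 10.5, 5.96 and 5.68 CPM in 5ar1 at passages 10, 12 and 14, and 15.4, 43.5 and 19.3 CPM in 5ar3 at passages 12, 4 and 5. Its log2 fold change of 5ar1 against 5ar3 was -1.82 (SE 0.51, edgeR adjusted p = 0.0559), so 0 of 8 members were called, and it was the 1 member with an unadjusted p under 0.05. Of all tested genes, 1.86% were called higher and 2.02% lower in 5ar1. DESeq2 called Actc1 (adjusted p = 0.0157), and so did edgeR without the passage 10 library of 5ar1 (0.0355) or the passage 12 library of 5ar3 (0.0373), within a range of 0.0157 to 0.291 over all alternatives.

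Acta1 leaned the other way between the lines, at 0.95 (SE 0.70, adjusted p = 0.509). The ratio of Acta1 to Actc1 per kilobase, a measure chosen after the values were seen and so not tested, was 2.56, 1.04 and 2.45 in the 5ar1 libraries and 0.342, 0.366 and 0.157 in the 5ar3 libraries. In EpiSC_AFX it was 2.52, 1.53 and 3.0, and in EpiSC_AF 0.525, 0.602 and 0.443. Per kilobase, libraries of EpiSC_AFX and of 5ar1 at passages 10 and 14 thus held more Acta1 than Actc1 message. Those of 5ar3 and EpiSC_AF held less. In 5ar1 at passage 12 the levels were near equal, with 185 reads of Acta1 and 187 of Actc1.

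Much of the spread lay between passages within a group, and in some libraries most members lay on the same side of the group mean. The FS library of line 5ar3 at passage 4 had the highest CPM of the 6 for 7 of the 8 filtered members, with a median deviation from the group mean of 0.94 on the log2 scale, against 0.01 for all tested genes. Passage 5 of the same line had the lowest value for 4 of the 8 and a median deviation of -0.54. EpiSC_AFX passage 5 was lowest for 7 of 8 (median -0.88). In EpiSC_AF, passage 14 was lowest for 8 of 8 (median -0.77) and passage 13 highest for 7 of 8 (median 0.69). Over all tested genes the median deviation in these libraries was 0 or 0.01. Scaling holds that median near 0 in any library, so it does not show how unusual the members' medians are. Of the other FS and EpiSC libraries, 5ar1 passage 10 and EpiSC_AFX passage 8 each had 7 of 8 members above the group mean (medians 0.33 and 0.64). In 5ar1 passage 12 it was 1 of 8, and in 5ar3 passage 12 it was 2 of 8. More mixed were 5ar1 passage 14, with 3 of 8, and EpiSC_AFX passage 12 and EpiSC_AF passage 15, each with 5 of 8. The share of all tested genes highest or lowest in each library was not counted, so nothing is read from these counts.

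**Figure D3:**
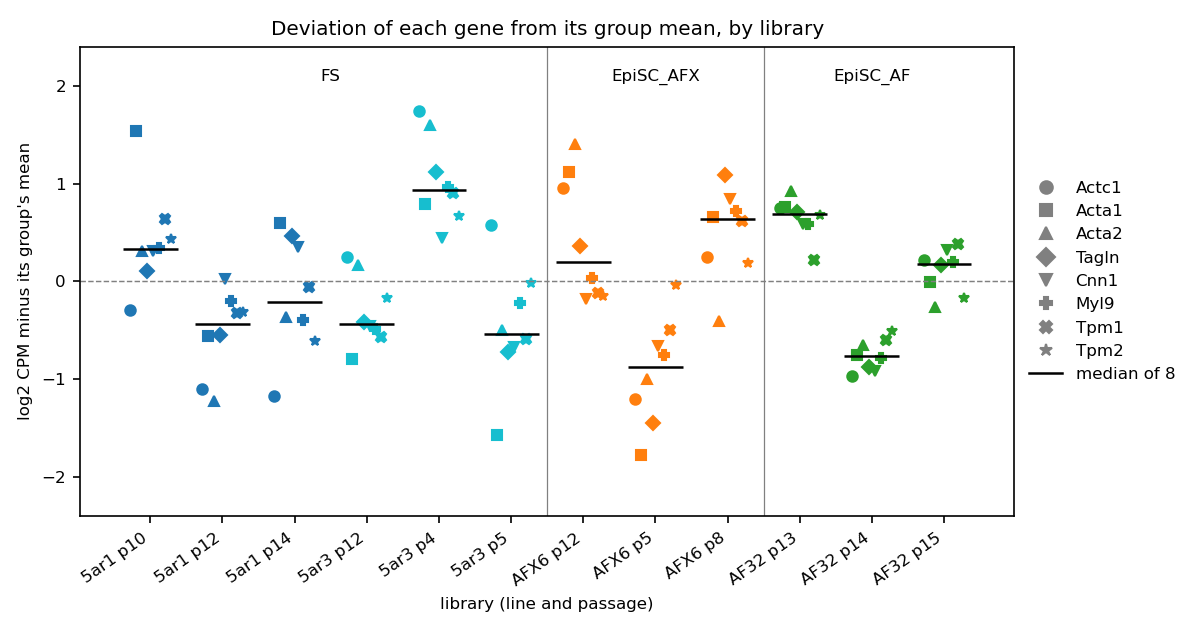
Deviation of log2 CPM (prior count 2) from the group mean for 8 genes, 1 marker shape per gene, in the 12 FS and EpiSC libraries, with the median of the 8 as a black line. All 8 genes lie above 0 at 5ar3 passage 4 and AF32 passage 13 and below 0 at AFX6 passage 5 and AF32 passage 14.

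The share of counts from mitochondrially encoded genes was 19.1% in the 5ar3 passage 4 library and 27.9% at passage 5, and 25.7% and 19.6% in EpiSC_AF at passages 13 and 14. Over all 16 libraries it ran from 11.9 to 43.2%, with the maximum in ES at passage 12. Leaving those genes out of the counts changed no count of called members. Its part in the passage differences was not tested.

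Over the 12 FS and EpiSC libraries, the 28 pairs of filtered members had Pearson correlations of log2 CPM between 0.139 and 0.903, with a median of 0.55. Actc1 and Acta2 were the closest pair (0.903), then Tagln with Tpm1 (0.834) and with Myl9 (0.833). Cnn1 and Tpm2 stood apart from Actc1 (0.219 and 0.22) and from Acta2 (0.159 and 0.139). These values describe libraries that share lines and passages, and no test is attached.

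Likeness of other tested genes was measured by Pearson correlation of log2 CPM over all 16 libraries, which the gap between ES and the rest enters. The closest were Lsp1 for Actc1 (r = 0.988) and for Acta2 (0.982), Nudt11 for Acta1 (0.96), Vopp1 for Tagln (0.986), Slc39a8 for Cnn1 (0.99), Pdlim2 for Myl9 (0.99), Thbs1 for Tpm1 (0.989) and Zfp512 for Tpm2 (0.992). With the ES libraries left out, a choice made after seeing the data, the order changed. Closest to Tagln were then Gm23374 (0.843), Pdlim2 and Cyr61 (both 0.84). Tpm1 was closest to Cldn1 (0.961), Klf6 (0.942) and Rp9 (0.914), and Actc1 to C2cd2 (0.945), Rbms2 (0.942) and Lsp1 (0.934).

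Genes of the same pathway were read from 9 lists of 70 genes, 57 of them tested. As with the members, FS and EpiSC libraries alone could carry a gene through the filter. Nothing is therefore read from the list counts against ES. Any 1 group could likewise carry a gene, so nothing is read from list counts among FS and EpiSC cultures either. A gene with hardly any reads in a group could only come out lower there, and its test supports nothing. Srf, the factor that binds the CArG box, was higher in FS (81.0 ± 12.6 CPM, n = 6), EpiSC_AFX (82.5 ± 12.7, n = 3) and EpiSC_AF (82.6 ± 10.9, n = 3) than in ES (25.1 ± 7.41, n = 4), with log2 fold changes of 1.69, 1.71 and 1.71 (edgeR adjusted p = 6.49e-07, 2.96e-06 and 2.77e-06). Its values differed little among the other groups, at -0.03, -0.03 and 0.00, with no call. Myocd, the muscle-restricted cofactor, had 0 reads in ES and means of 0.691, 0.521 and 2.78 CPM in FS, EpiSC_AFX and EpiSC_AF. With 0 ES reads, only FS and EpiSC libraries could carry Myocd through the filter, so no test against ES is read. Myocd was lower in FS than in EpiSC_AF (log2 fold change -2.0, SE 0.53, edgeR adjusted p = 0.019). Mrtfa (listed as Mkl1) was higher in FS than in ES (1.06, SE 0.28, adjusted p = 0.00338) and was not called in either EpiSC group, and Mrtfb (Mkl2) was not called in any of the 3.

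Against ES, 32.9% of all tested genes were called higher and 29.9% lower in FS. These shares were 28.5% and 26.2% in EpiSC_AFX and 29.7% and 27% in EpiSC_AF. Of 12 SRF targets of the cytoskeleton and immediate early response, 10 were higher and 1 lower in FS than in ES. The counts were 10 and 1 in EpiSC_AFX, and 11 and 1 in EpiSC_AF. The lower gene in each was Fhl1. The largest changes were in Ankrd1, a stress-responsive muscle protein (0 reads in ES, and 0.592, 3.18 and 4.96 CPM in the other groups), the immediate early factor Egr1 (0.216 CPM in ES, and 6.86, 20.3 and 14.1 CPM) and the LIM protein Fhl2 (0.136 CPM in ES, and 1.87, 4.17 and 6.83 CPM). No member was called in FS against EpiSC_AF. Of the 12 targets, 5 were lower and 0 higher in FS there, beside 8.81% and 7.84% of all tested genes. The 5 included Fhl2 (-1.86, SE 0.39, edgeR adjusted p = 0.00329) and Ankrd1. EpiSC libraries alone could carry Ankrd1, at a median of 0.293 CPM in FS, through the filter, so its test is not given. Egr1 was the 1 target called in FS against EpiSC_AFX (-1.56, SE 0.40, adjusted p = 0.0296).

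Of the cytoplasmic actins, Actg1 was called against ES and Actb was not. Actg1 was higher in FS (538 ± 127 CPM, n = 6) than in ES (166 ± 2.14, n = 4), by 1.70 on the log2 scale (SE 0.18, edgeR adjusted p = 3.71e-07). Actb, at 2890 ± 299 against 2320 ± 656 CPM, was at 0.32 (SE 0.17, adjusted p = 0.121), and with total counts at 0.63 (adjusted p = 0.0222), where the median over all genes was 0.40. Of the 9 paralogs of the members, 4 were higher and 1 lower in FS than in ES, beside 32.9% and 29.9% of all tested genes. Among the higher paralogs were Cnn2 (1.83, SE 0.24, adjusted p = 4.13e-06) and Tpm4 (1.44, SE 0.14, adjusted p = 1.24e-07). Tagln3, the neuronal transgelin, was higher in FS than in EpiSC_AFX (2.21, SE 0.37, adjusted p = 0.00211) and EpiSC_AF (1.82, SE 0.36, adjusted p = 0.00196), where Tagln was not called.

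Other muscle genes were read next, beginning with those of smooth muscle. Of 7 smooth muscle genes, 6 were tested and all 6 were higher in FS than in ES, 3 in EpiSC_AFX and 4 in EpiSC_AF. Of all tested genes, 32.9%, 28.5% and 29.7% were called higher in these comparisons. Des, the muscle intermediate filament desmin, stood at 16.5 ± 3.53 CPM in FS and 2.76 ± 2.31 in ES (log2 fold change 2.56, SE 0.36, edgeR adjusted p = 8.89e-06), and Lmod1, an actin nucleator, at 2.14 ± 2.39 and 0.234 ± 0.129 (3.18, SE 0.78, adjusted p = 0.00179). Myh11, the myosin heavy chain that defines differentiated smooth muscle, did not pass the filter and was at 0.234, 0.31, 0.284 and 0.203 CPM in FS, EpiSC_AFX, EpiSC_AF and ES.

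The cardiac sarcomere genes were divided. Of 11, 10 were tested, and 5 were higher and 3 lower in FS than in ES, beside 32.9% and 29.9% of all tested genes. Ttn, the sarcomere scaffold titin, was at 230 ± 85.9 CPM in ES (n = 4) and 2.56 ± 0.604 in FS (n = 6), a fitted log2 difference of -6.49 (SE 0.33, edgeR adjusted p = 3.43e-11). Tnni1, slow skeletal troponin I, was at 14.5 ± 3.41 CPM in ES and 0.0454 ± 0.0516 in FS (-8.24, SE 0.58, adjusted p = 1.95e-09), and Tnnt2, cardiac troponin T, was also lower in FS (-2.57, SE 0.56, adjusted p = 0.000712). Mylpf, the fast skeletal regulatory light chain and the 1 skeletal muscle gene of 7 that passed the filter, fell from 115 ± 33.6 CPM in ES to 1.22 ± 0.184 in FS (-6.55, SE 0.20, adjusted p = 1.18e-13). These genes were also lower in both EpiSC groups than in ES. Myl3 and Myh6 were on the side of the members, at 5.03 and 2.01 in FS against ES (adjusted p = 0.000198 and 0.00081), though at 1.39 and 1.0 CPM in FS.

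**Figure D4:**
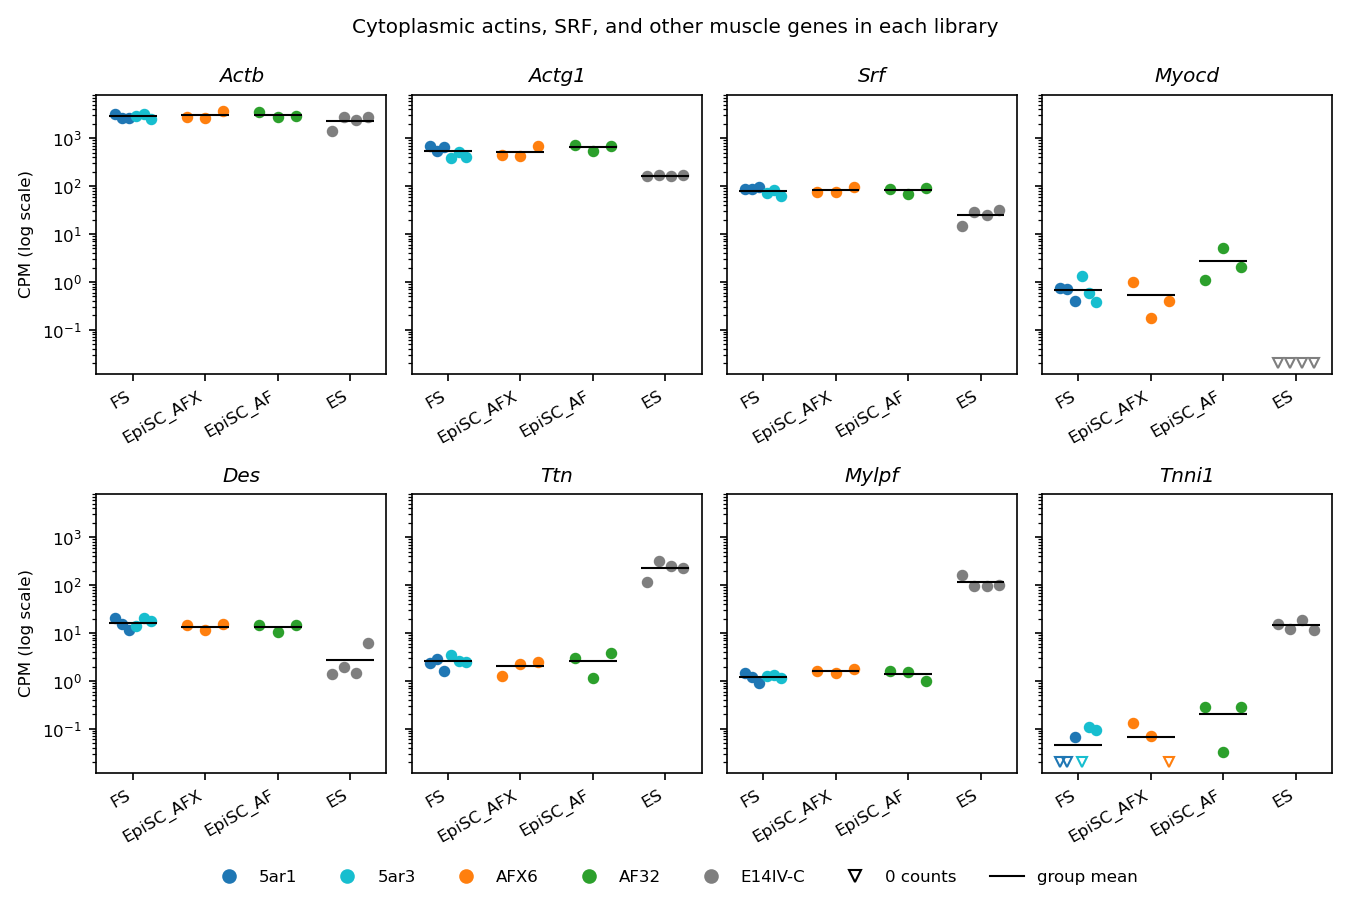
CPM on a log axis for Actb, Actg1, Srf, Myocd, Des, Ttn, Mylpf and Tnni1, 1 point per library coloured by line, with group means as black lines and libraries with 0 counts as open triangles. Actg1, Srf, Myocd and Des are lower in ES than in the other groups, and Ttn, Mylpf and Tnni1 are higher in ES.

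Markers of other cell types were read beside these values. Nkx2-5, a defining cardiac factor, averaged at most 0.0691 CPM in any group and did not pass the filter, and the skeletal muscle factors Myod1 and Myog averaged at most 0.128 and 0.014 CPM. The 9 cardiac transcription factors summed to between 0.519 and 4.64 CPM in FS, 1.05 and 9.78 in EpiSC_AFX, 9.06 and 24.7 in EpiSC_AF and 1.23 and 2.35 in ES. Of all tested genes, 8.81% were called lower and 7.84% higher in FS than in EpiSC_AF. Of the 5 factors tested, 4 were lower in FS than in EpiSC_AF and 0 higher, among them Gata4 (-4.05, SE 0.78, edgeR adjusted p = 0.00164) and Mef2c (-2.18, SE 0.45, adjusted p = 0.0026). Hand1, also among the 4, had 1 read in all FS libraries and 2 in ES, so only EpiSC libraries could carry it through the filter. Hand1 could thus only come out lower in FS, and its test is not given. Nothing is read from the count of 4. Between the FS lines the 9 factors summed to between 0.519 and 1.45 CPM in 5ar1 and 2.59 and 4.64 CPM in 5ar3, the line with the higher Actc1, so the sums did not overlap. Of the 5 tested, 0 were called between the lines, with a median log2 difference of -1.14 for 5ar1 against 5ar3, and the part of such cells in the Actc1 difference was not tested.

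The 9 fibroblast and feeder cell genes, which matter here because fibroblasts express Acta2 and Tagln, summed to between 20.6 and 46.6 CPM in FS, 19.3 and 32.2 in EpiSC_AFX, 55.4 and 92.8 in EpiSC_AF and 6.54 and 6.91 in ES. Of the 8 tested, 6 were higher and 0 lower in FS than in ES, 6 and 0 in EpiSC_AFX, and 8 and 0 in EpiSC_AF. Of all tested genes, 32.9%, 28.5% and 29.7% were called higher in these comparisons. In EpiSC_AFX against EpiSC_AF, 2.83% of all tested genes were called lower and 1.43% higher. Between these groups, where Acta2 and Actc1 did not overlap, 4 genes of the list were lower and 1 higher in EpiSC_AFX. Those lower included Col1a1 (-2.79, SE 0.63, edgeR adjusted p = 0.0158), Col1a2 (-2.04, SE 0.47, adjusted p = 0.0182) and Col3a1 (-3.12, SE 0.60, adjusted p = 0.00574), and the fourth was Pdgfra. Thy1 was the gene higher in EpiSC_AFX. Between the FS lines the list summed to between 20.6 and 38.9 CPM in 5ar1 and 34.7 and 46.6 in 5ar3, and its median log2 difference was -0.77 for 5ar1 against 5ar3. Dcn was called higher in 5ar1 (1.92, SE 0.41, edgeR adjusted p = 0.0186) and Pdgfra lower (-2.58, SE 0.70, adjusted p = 0.0487), and the other 6 were not called. Col1a1, among these 6, averaged 0.842 CPM in 5ar1 and 2.37 in 5ar3, and Col1a2 5.28 and 9.55. The part of such cells in the members' levels was not tested.

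Over all 57 tested genes of the lists, 36 were higher and 6 lower in FS than in ES, 31 and 8 in EpiSC_AFX, and 39 and 7 in EpiSC_AF. The shares of all tested genes were 32.9% and 29.9%, 28.5% and 26.2%, and 29.7% and 27%. Among FS and EpiSC cultures, 2 list genes were higher and 2 lower in FS than in EpiSC_AFX. The counts were 3 and 17 in FS against EpiSC_AF, and 1 and 6 in EpiSC_AFX against EpiSC_AF. All tested genes gave 2.89% and 2.1%, 7.84% and 8.81%, and 1.43% and 2.83%. Between the FS lines, 1 list gene was higher and 3 were lower in 5ar1, beside 1.86% and 2.02% of all tested genes. Single libraries moved these small counts: the total in FS against EpiSC_AFX was 2 without EpiSC_AFX passage 5 or passage 8. That in EpiSC_AFX against EpiSC_AF was 4 without EpiSC_AF passage 13 or 15, and 11, 2 and 3 without EpiSC_AFX passage 12, 5 and 8. Between the lines it was 0 without 5ar1 passage 12 or 14 and 2 without 5ar3 passage 4 or 5. Mylk, the smooth muscle myosin light chain kinase (-2.80, SE 0.60, edgeR adjusted p = 0.0131), Myh7, a slow myosin heavy chain (-4.48, SE 1.0, adjusted p = 0.0174), and Pdgfra (-2.58, SE 0.70, adjusted p = 0.0487) were the 3 lower genes, on the same side as Actc1.

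Marker genes set ES apart from the other cultures. The labels FS, EpiSC_AFX and EpiSC_AF were not checked against each other. Zfp42, Esrrb and Klf4, genes of naive ES cells, averaged 328, 638 and 82.4 CPM in ES and at most 0.121, 1.11 and 1.24 CPM in any other group. Fgf5, Otx2 and Dnmt3b, genes of the post-implantation epiblast, averaged 66.9, 175 and 1310 CPM in FS and 0.182, 14.9 and 60.7 CPM in ES. They averaged 69.1, 103 and 901 CPM in EpiSC_AFX and 119, 141 and 787 CPM in EpiSC_AF. Pou5f1, the core pluripotency factor, averaged between 521 and 778 CPM in the 4 groups. Within FS it ran from 758 to 1280 CPM in line 5ar1 and from 345 to 549 CPM in line 5ar3. Sox2, the other pluripotency marker read, averaged 210 CPM in ES and 77.6, 47.6 and 32.3 CPM in FS, EpiSC_AFX and EpiSC_AF.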

How the data were processed

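Bulk RNA-seq counts of 16 mouse libraries were analysed. The authors deposited raw counts per gene. The submitters' processing notes name Trim Galore, TopHat2 2.1.0, featureCounts 1.5.0 and the mm10 build. Per the labels' protocols the library kit was directional. The strand setting and annotation release are not given in the sources used here. A further 6 columns matched no sample and were not used. Libraries were grouped by culture label, with passages as replicates.

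Counts were filtered with filterByExpr by group, scaled by TMM and fitted in edgeR 4.0.16 (R 4.3.3, robust quasi-likelihood, 1 mean per group, all 16 libraries), with 1 mean per line for the FS lines. Calls required a Benjamini-Hochberg adjusted p under 0.05 over all 18555 tested genes. DESeq2 1.42.0 served as an alternative. The code was tested on simulated data. Log2 CPM used a prior count of 2. Exon lengths come from GENCODE mouse release 21, which held 33860 of the 34042 identifiers. Ratios to ES pool the reads of a group, with exact 95% intervals that cover counting error and not the spread between libraries.

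The genes and lists were chosen with earlier results of these data known. Genes named were the 9 members, 14 genes picked by role, up to 3 called genes per list with the largest change, and the 3 genes most correlated with each member. Others named to spell out a count of 5 or fewer were chosen after their values were seen. Other scalings, no filter, only the groups compared, each FS line alone and leaving out each library were tried.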

Additional observations from a re-analysis of the deposited data

Results flagged for a closer look

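In groups of 4 to 10 libraries, the gap between the extreme library and its nearest neighbour was set against Dixon's 95% critical value, which chance passes in about 1 group in 20. Of 17 groups of values tested, 3 passed. Actc1 and Acta2 in FS both passed through the 5ar3 passage 4 library, at 43.5 and 71.5 CPM, the library that was highest for 7 of 8 members. Actc1 in ES passed through the passage 15 library at 0.0455 CPM, which is 1 read against 0 in the other 3.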

How the results depend on the processing

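Counts of called members or of called genes on the 9 lists did not move by over 1.5 times with DESeq2 size factors, total counts alone or mitochondrial genes left out. With DESeq2's test, 1 member was called between the FS lines, and the list genes called were 8 in FS against EpiSC_AFX and 7 between the lines. With no low-count filter, 1 member (Actg2) was called in EpiSC_AFX against EpiSC_AF. With only the groups compared in the fit, 2 list genes were called in FS against EpiSC_AFX. With 5ar3 as the only FS line, 1 member and 7 list genes were called there. Without the 2 libraries low for most members (EpiSC_AFX passage 5 and 5ar3 passage 5), chosen after seeing the data, 1 member was called between the lines, and 2 list genes in FS against EpiSC_AFX and 3 in EpiSC_AFX against EpiSC_AF.

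Leaving out each library in turn, members called ranged from 0 to 1 in FS against EpiSC_AFX, in EpiSC_AFX against EpiSC_AF and between the lines, and were 0 in FS against EpiSC_AF. List genes called ranged from 2 to 5, from 2 to 11 and from 0 to 4 in the first 3 of these. Against ES, 370 of 376 recomputed member differences moved by less than 1 SD between libraries and 0 changed sign. Among FS and EpiSC cultures, 33 of 496 changed sign and 8 passed the threshold, 4 of Actc1 between the lines, 2 of Actc1 and 1 of Acta2 in FS against EpiSC_AFX, and 1 of Acta2 between the EpiSC groups. None of the values that changed sign passed the test in any alternative where they did. The cause was not tested.

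Sign changes with each library left out gave these log2 ranges. In FS against EpiSC_AFX, Acta1 ran from -0.29 to 0.72, Tagln from -0.03 to 1.01, Cnn1 from -0.01 to 0.80 and Tpm1 from -0.16 to 0.43. In FS against EpiSC_AF, Actc1 ran from -0.71 to 0.27, Acta1 from -0.09 to 0.80 and Myl9 from -0.25 to 0.37. In EpiSC_AFX against EpiSC_AF, Acta1 ran from -0.39 to 0.62 and Cnn1 from -0.21 to 0.64. Between the lines, Tagln ran from -0.49 to 0.63, Myl9 from -0.56 to 0.30, Tpm1 from -0.31 to 0.73 and Tpm2 from -0.68 to 0.01. With 5ar3 as the only FS line, Acta1 was at -0.35 and Tpm2 at 0.01 against EpiSC_AFX, and Actc1 at 0.49 and Acta1 at -0.22 against EpiSC_AF. With 5ar1 alone, Myl9 was at -0.10 against EpiSC_AF. Without the 2 low libraries, Acta1 was at -0.09 and Tpm1 at -0.05 in FS against EpiSC_AFX, and Tpm1 at -0.20 between the lines.

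At 22069338 to 33290250 counts per library, the ES level of Actc1 rests on 1 read and Actg2 is at 0 in 7 libraries of ES and EpiSC_AFX, so ratios to them are set by counting error. No paired analysis was possible because replicate numbers follow accession order and pair no samples.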
